A study of Mus musculus with 8 samples.

Results

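The genes described here include negative regulators and transcriptional outputs of the mitogen-activated protein kinase (MAPK) pathways, measured in embryonic mouse back skin. They were chosen by symbol, namely every numbered dual-specificity phosphatase gene (Dusp), the Sprouty and Spred genes, the PEA3 transcription factor genes Etv1, Etv4 and Etv5, the exchange factor genes Rasgrp1, Rasgrp2 and Rasgrp3, and Phlda1, Ier3 and Ccnd1. The rule found 37 of the 20152 genes of the comparison, of which 22 are Dusp genes, and Spry3 was not analysed here. Of the 22, 12 are atypical phosphatases, not all of which act on MAPKs, and the exchange factors are activators. RNA was sequenced from 4 independent back skin samples of GNAQ R183Q mouse embryos and from 4 of wild-type embryos at E14.5, all 8 with the same batch label. GNAQ is the alpha subunit of the G protein Gq, and how the altered allele was introduced, in which cells it acts, whether embryos were pooled, and their strain and sex are not stated in the labels. The values come from the authors' deposited table, which sets the genotypes against each other and holds no value per library, so depth per library is unknown.

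As background, receptor tyrosine kinases and Gq both feed the ERK branch of MAPK signalling. Gq does so through phospholipase C beta, diacylglycerol and its effectors, among them some RasGRP exchange factors. Active ERK induces its own brakes: phosphatases of the Dusp family take phosphate off ERK, JNK or p38, Sprouty proteins dampen signalling from receptor to Ras, and Spred proteins recruit neurofibromin to switch Ras off. The PEA3 factors are ETS-domain proteins whose genes are induced by FGF signalling, so levels of Dusp6, Sprouty and PEA3 transcripts are widely read as a record of ERK activity.

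Of these 37 genes, 1 fell and 0 rose in GNAQ R183Q skin in the authors' deposited table, at a threshold of 0.05 on the authors' DESeq2 adjusted p. Among all genes 2.46% fell and 0.63% rose, or 3.09% in either direction, so the share of members called was close to the background. The gene that fell was Dusp22, an atypical phosphatase of the JNK pathway, which dropped 1.40-fold. The classical readouts Dusp6, Spry1, Spry2, Spry4, Etv4 and Etv5 did not pass. At an unadjusted p of 0.05, 2 members were lower and 0 higher, against 8.23% of all genes lower and 5.94% higher. The median log2 fold change (GNAQ R183Q over wild type) was -0.05 over the members and 0.01 over all genes in the authors' deposited table. It was 0.06 over the members, against 0.02 over all genes with a transcript length, once a trend with transcript length and GC content was removed. Negative fold changes numbered 26 and positive ones 11 among the members, against 9871 and 10281 among all genes, and 14 of the 37 members changed sign when that trend was removed.

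Most members were measured well enough to bound a change. An implied 95% interval was drawn for each gene from the authors' fold change and p, and for 34 of the 37 members it lay inside a 2-fold change in either direction, or 91.9%, against 62.7% of all genes and 87.4% of genes with an average of at least 1 CPM, a count scaled to library size. For 21 members it lay inside a 1.5-fold change, or 56.8%, against 39.7% of all genes and 55.7% of those above 1 CPM. The 3 members whose interval passed a 2-fold change were Dusp13, Dusp26 and Dusp28, with low averages. Dusp5, Dusp13 and Dusp26 averaged under 1 CPM, which left 34 members above it.

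**Figure D1:**
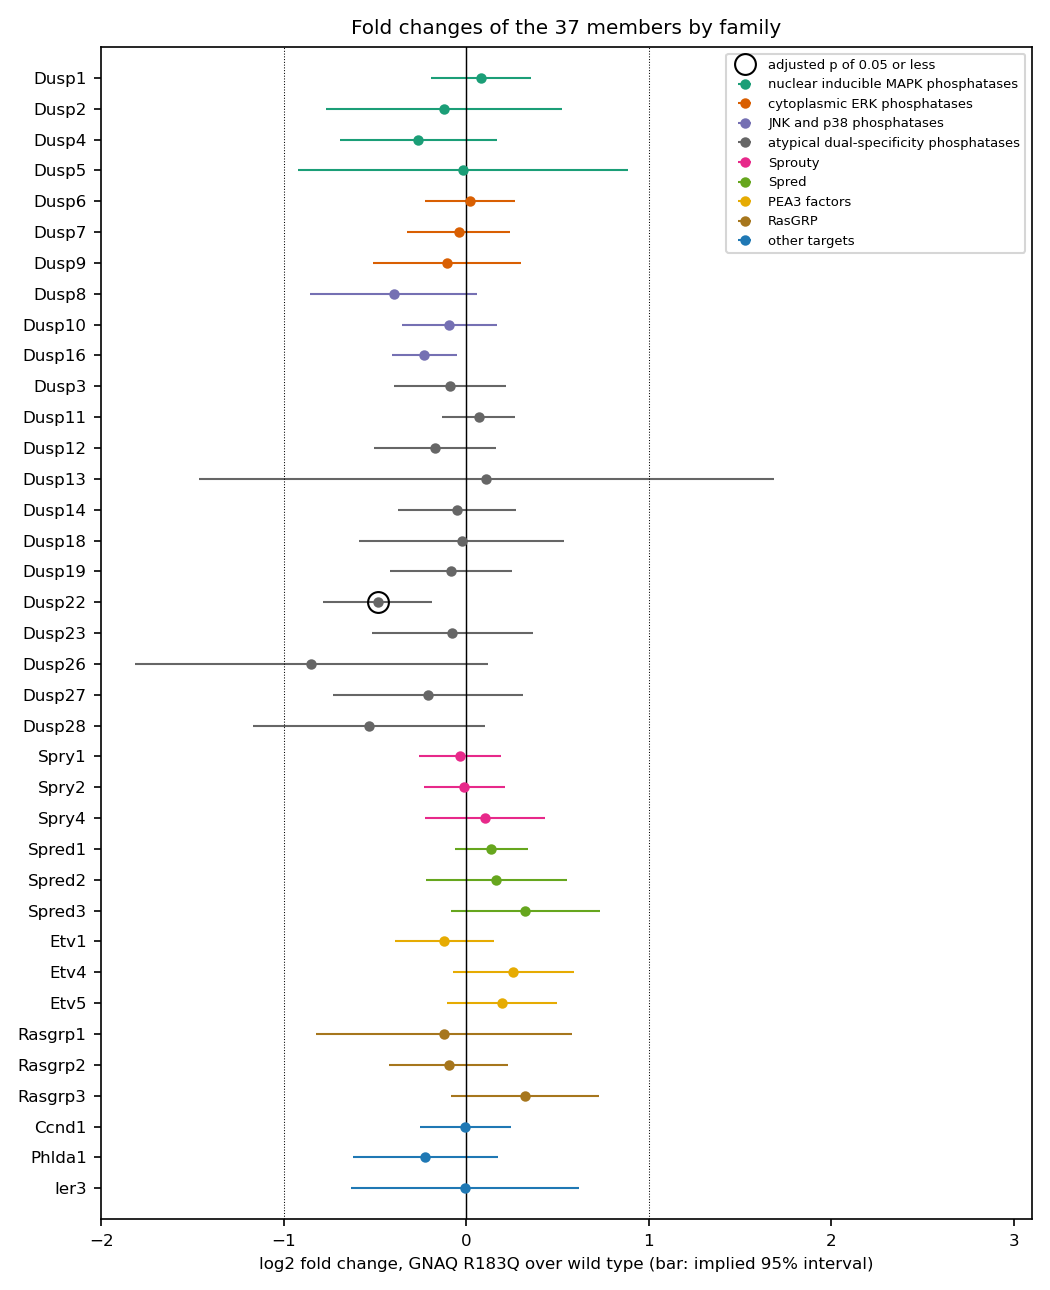
Log2 fold change (GNAQ R183Q over wild type) for the 37 members, coloured by family, with bars for the implied 95% interval and dotted lines at a 2-fold change in either direction. Dusp22, circled, is the 1 member past an adjusted p of 0.05, at -0.49, and the interval of Dusp13 is the widest.

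The promoters of 4 phosphatase genes are shown, those of Dusp22 and Dusp16 because they are the members with an unadjusted p under 0.05, and those of Dusp1 and Dusp8 because they hold a motif of cyclic AMP and calcium responsive genes. Each is the 250 bases before the annotated start in the RefSeq table for GRCm38.p6, which is not the authors' build, and each is written 5′ to 3′ along the gene. Dusp22 lies at chr13:30659809-30660058 on the plus strand, Dusp16 at chr6:134792629-134792878 on the minus strand, Dusp1 at chr17:26508473-26508722 on the minus strand and Dusp8 at chr7:142095285-142095534 on the minus strand. Capitals mark the CRE motif TGACGTCA, which neither the Dusp22 nor the Dusp16 window holds.
Dusp22: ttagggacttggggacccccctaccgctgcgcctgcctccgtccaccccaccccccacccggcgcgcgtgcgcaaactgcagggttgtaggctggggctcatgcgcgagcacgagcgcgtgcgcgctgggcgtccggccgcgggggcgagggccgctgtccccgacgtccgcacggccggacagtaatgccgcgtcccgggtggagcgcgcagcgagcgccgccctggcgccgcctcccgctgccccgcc
Dusp16: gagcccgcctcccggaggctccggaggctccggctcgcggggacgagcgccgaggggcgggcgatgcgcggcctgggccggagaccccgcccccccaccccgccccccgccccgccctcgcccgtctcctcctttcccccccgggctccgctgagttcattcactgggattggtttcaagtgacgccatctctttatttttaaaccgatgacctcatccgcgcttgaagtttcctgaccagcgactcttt
Dusp1: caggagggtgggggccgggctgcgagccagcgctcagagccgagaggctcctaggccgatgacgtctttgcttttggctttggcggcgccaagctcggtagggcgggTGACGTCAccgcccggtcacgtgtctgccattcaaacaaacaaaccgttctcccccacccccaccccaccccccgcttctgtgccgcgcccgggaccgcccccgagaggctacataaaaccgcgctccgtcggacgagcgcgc
Dusp8: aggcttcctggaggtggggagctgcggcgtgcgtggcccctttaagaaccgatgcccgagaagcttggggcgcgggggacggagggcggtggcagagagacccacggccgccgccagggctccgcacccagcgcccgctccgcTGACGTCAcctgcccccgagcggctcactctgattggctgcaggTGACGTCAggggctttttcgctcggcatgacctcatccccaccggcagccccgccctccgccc
The CRE letters begin 143 bases before the start of Dusp1, and 107 and 63 bases before the start of Dusp8.

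Promoter windows were found by symbol for 29 of the 37 members, 36 windows in all. The CRE motif, which reads the same on both strands, was in 2 of these 36 windows and in 1.55% of all 32851 windows of that length. The ETS core CCGGAA, searched on both strands, was in 4 member windows, those of Dusp14, Dusp27, Rasgrp2 and Rasgrp3, against 12.03% of all windows. The AP-1 motif TGANTCA, also searched on both strands, was in 1 member window, of Dusp13, against 6.75% of all windows. These motifs did not overlap in the member windows, and a match describes the letters only.

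The 12 atypical phosphatases, which lack the MAPK docking domain of the classical ones, hold the gene that fell. Dusp22 had an average expression of 973 over the libraries in the authors' deposited table, which with its fold change implies 811 in GNAQ R183Q skin and 1135 in wild-type skin. The log2 fold change was -0.49, with an implied 95% interval between -0.78 and -0.19 and an authors' DESeq2 adjusted p = 0.0483 in the authors' deposited table. That p sits just under the threshold. Net of length and GC the log2 fold change was -0.47, about as large, and the adjusted p was 0.0578, just over it. The z-scores of log2 CPM, read here as scaled per gene over the 8 libraries with the sample SD, averaged -0.788 in GNAQ R183Q skin and 0.788 in wild-type skin, with medians of -0.753 and 0.744 in the same order in the authors' deposited table. On that reading no set of 4 and 4 values with these means and medians lets the genotypes overlap, so every GNAQ R183Q library lay below every wild-type library. The same can be shown for 6.39% of all genes.

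The other atypical phosphatases did not pass. Dusp11, which trims triphosphates from RNA ends, was the most expressed of them, at an average of 4581, a log2 fold change of 0.07, an implied interval between -0.13 and 0.27 and an authors' DESeq2 adjusted p = 0.817 in the authors' deposited table. The mean z-scores were 0.412 in GNAQ R183Q skin and -0.412 in wild-type skin, and its median z-scores were 0.299 and -0.357 in the same order in the authors' deposited table. Lower values were found for Dusp26, a phosphatase known from neural tissue, at -0.85, and for the small phosphatase gene Dusp28, at -0.53, in the authors' deposited table. Both had wide intervals, from -1.81 to 0.12 for Dusp26 and from -1.17 to 0.11 for Dusp28, and average expressions of only 17.98 and 49.8. Dusp27 encodes an inactive phosphatase needed for muscle assembly in zebrafish, and it stood at -0.21 in the authors' deposited table. Of the 8 skeletal muscle markers 3 fell, among them Ckm, and the part of muscle in the value of Dusp27 was not tested. Dusp3, Dusp12, Dusp14, Dusp18, Dusp19 and Dusp23 lay between -0.17 for Dusp12 and -0.03 for Dusp18, and Dusp13 stood at 0.11, in the authors' deposited table.

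The 3 phosphatases that prefer JNK and p38, Dusp8, Dusp10 and Dusp16, all had negative fold changes, as did 26 of all 37 members. The median of the 3 was -0.23, and net of length and GC, where all 3 stayed negative, it was -0.31. Dusp16 was the most expressed, at an average of 1746, which implies 1608 in GNAQ R183Q skin and 1885 in wild-type skin in the authors' deposited table. Its log2 fold change was -0.23, with an implied interval between -0.41 and -0.05 and an authors' DESeq2 adjusted p = 0.169 in the authors' deposited table, so it was not called. It did pass net of length and GC, at -0.31 with an adjusted p of 0.0218. Mean z-scores of Dusp16 were -0.831 in GNAQ R183Q skin and 0.831 in wild-type skin, and the medians were -1.04 and 0.782 in the authors' deposited table. A mean above 0.810 in size leaves no room for overlap, so all GNAQ R183Q libraries lay below all wild-type libraries, as in 2.58% of all genes by that bound. Dusp8 stood at -0.40, with an interval between -0.85 and 0.06, and Dusp10 at -0.09, with an interval between -0.35 and 0.17, in the authors' deposited table. Median z-scores of Dusp10 were 0.0475 in GNAQ R183Q skin and 0.0183 in wild-type skin in the authors' deposited table. That order is opposite to its fold change.

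Marker RNA of the suprabasal and periderm layers was lower in GNAQ R183Q skin. Of 8 suprabasal epidermis markers, 8 fell, and their implied levels summed to 63818 in GNAQ R183Q skin and 159800 in wild-type skin. Of 7 periderm markers 4 fell, of 7 basal epidermis markers 1 fell and 0 rose, and of 7 dermal fibroblast markers 0 passed the authors' DESeq2 threshold, also 0 at an unadjusted p of 0.05. The lowest implied levels in GNAQ R183Q skin were those of the periderm keratin Krt13, at 23.2 against 96.8 in wild-type skin, and of Lor, a cornified envelope protein, at 34.7 against 450.2 in wild-type skin, so Krt13 lay under 1 CPM in GNAQ R183Q skin. In bulk RNA fewer cells of a type and less RNA per cell cannot be told apart, and the part of these layers in the values of Dusp22 and Dusp16 was not tested.

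The nuclear, signal-induced phosphatases Dusp1, Dusp2, Dusp4 and Dusp5 did not pass. Their median log2 fold change was -0.07 and turned to 0.14 net of length and GC. Dusp1, an immediate early gene whose product acts on all 3 MAPK classes, averaged 366, with 376 implied in GNAQ R183Q skin and 356 in wild-type skin in the authors' deposited table. The log2 fold change was 0.08, with an interval between -0.19 and 0.35 and an authors' DESeq2 adjusted p = 0.852 in the authors' deposited table. Mean z-scores of Dusp1 were 0.371 in GNAQ R183Q skin and -0.371 in wild-type skin, and medians were 0.433 and -0.183 in the authors' deposited table. Dusp4 had the smallest p of the family, at a log2 fold change of -0.26, an interval between -0.69 and 0.17 and an authors' DESeq2 adjusted p of 0.624 around an average of 126 in the authors' deposited table. Its mean z-scores were -0.354 in GNAQ R183Q skin and 0.354 in wild-type skin, with medians of -0.345 and 0.654 in the authors' deposited table. Dusp2 and the ERK-specific Dusp5 stood at -0.12 and -0.02 with intervals from -0.77 to 0.53 and from -0.92 to 0.89 in the authors' deposited table, and at averages of 44.8 and 26.5 they were measured poorly.

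The cytoplasmic ERK phosphatases Dusp6, Dusp7 and Dusp9 were each bounded within a 1.5-fold change in either direction. Dusp6, the feedback phosphatase most used as an ERK readout, averaged 1959, with 1972 implied in GNAQ R183Q skin and 1946 in wild-type skin in the authors' deposited table. Its log2 fold change was 0.02, with an interval between -0.23 and 0.27 and an authors' DESeq2 adjusted p = 0.971 in the authors' deposited table. Mean z-scores of Dusp6 were 0.200 in GNAQ R183Q skin and -0.200 in wild-type skin, while the medians were -0.199 and -0.0886, so mean and median put the genotypes in opposite order in the authors' deposited table. Dusp9, an X-linked gene, stood at -0.10 with an interval between -0.51 and 0.30 and an authors' DESeq2 adjusted p of 0.873 around an average of 173 in the authors' deposited table. The mean z-scores were -0.130 in GNAQ R183Q skin and 0.130 in wild-type skin, and its medians were -0.117 and 0.115, in the authors' deposited table. Dusp7 stood at -0.04, with an interval between -0.32 and 0.24 in the authors' deposited table. The family's median was -0.04 and became 0.06 net of length and GC.

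Sprouty genes were also each bounded within a 1.5-fold change. Spry2 averaged 883, with 879.8 implied in GNAQ R183Q skin and 886 in wild-type skin in the authors' deposited table, at a log2 fold change of -0.01, an interval between -0.23 and 0.21 and an authors' DESeq2 adjusted p of 0.983. Its mean z-scores were 0.0706 in GNAQ R183Q skin and -0.0706 in wild-type skin, and its medians were -0.0293 and -0.338, in the authors' deposited table. Spry4 had the smallest p of the 3, at 0.10 with an interval between -0.22 and 0.43 and an authors' DESeq2 adjusted p of 0.836 around an average of 511 in the authors' deposited table. Mean z-scores of Spry4 were 0.258 in GNAQ R183Q skin and -0.258 in wild-type skin, and medians were 0.114 and -0.137 in the authors' deposited table. Spry1 stood at -0.03 with an interval between -0.26 and 0.19 in the authors' deposited table. All 3 Sprouty genes had mean z-scores under 0.354 in size, below which the genotypes must overlap, as did 22 of the 37 members and 49.2% of all genes.

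**Figure D2:**
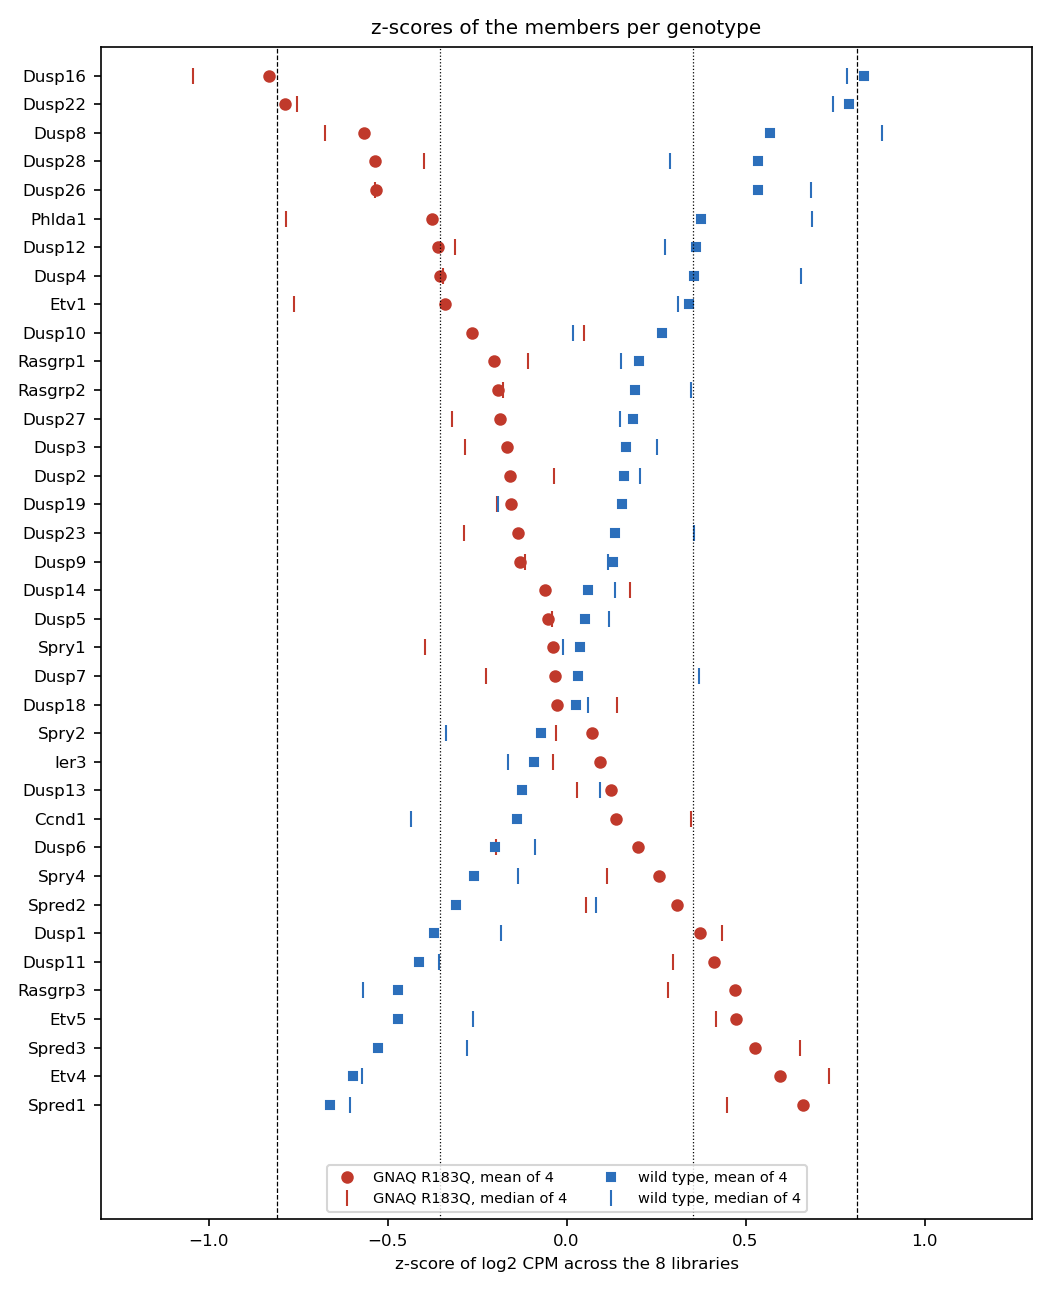
Mean (symbols) and median (ticks) z-scores of log2 CPM per genotype, GNAQ R183Q in red and wild type in blue, for the members in the order of the GNAQ R183Q mean. Beyond the dashed lines at 0.810 in size the 4 and 4 libraries cannot overlap, inside the dotted lines at 0.354 they must, and Dusp16 passes the outer line while Dusp22, at 0.788, lies just inside it.

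Between those bounds the means alone do not settle the matter. Dusp16 separated the genotypes by its mean, and Dusp22 did so with the medians added. These 2 of 37 members stand beside 6.39% of all genes shown to separate by means and medians. Of the other members 22 overlapped, against 49.2% of all genes by the mean, and 13 stayed undetermined. The 13 include the 4 members of largest positive fold change, Spred3, Rasgrp3, Etv4 and Etv5. In Spry2, Ccnd1 and Ier3 the mean z-score had the opposite sign to the log2 fold change. For Dusp6, Dusp10, Dusp13, Dusp14, Dusp18 and Spred2 the median z-scores put the genotypes in the opposite order to the means.

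The 3 Spred genes all had positive fold changes, also net of length and GC, but none passed. Spred1 averaged 3746, with 3926 implied in GNAQ R183Q skin and 3567 in wild-type skin in the authors' deposited table. The log2 fold change was 0.14, with an interval between -0.06 and 0.34 and an authors' DESeq2 adjusted p = 0.565 in the authors' deposited table, and it was 0.0012 after the trend was removed. Mean z-scores of Spred1 were 0.661 in GNAQ R183Q skin and -0.661 in wild-type skin, and medians were 0.448 and -0.604 in the authors' deposited table. Spred3 had the largest positive value of all members, 0.32 with an interval between -0.08 and 0.73 and an authors' DESeq2 adjusted p of 0.491 around an average of 225 in the authors' deposited table. The mean z-scores were 0.527 in GNAQ R183Q skin and -0.527 in wild-type skin, and its medians were 0.653 and -0.277, in the authors' deposited table. Spred2 stood at 0.17 with an interval between -0.22 and 0.55 in the authors' deposited table. Mean z-scores of Spred2 were 0.310 in GNAQ R183Q skin and -0.310 in wild-type skin in the authors' deposited table. Its medians were 0.0536 and 0.0820 in the same order, so they ran against its fold change.

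Among the PEA3 factors, which act in FGF-driven branching and placode growth, Etv4 and Etv5 had positive values and Etv1 a negative one. Etv5 averaged 1038, with 1108 implied in GNAQ R183Q skin and 968 in wild-type skin in the authors' deposited table. Its log2 fold change was 0.19, with an interval between -0.11 and 0.50 and an authors' DESeq2 adjusted p = 0.597 in the authors' deposited table. Mean z-scores of Etv5 were 0.472 in GNAQ R183Q skin and -0.472 in wild-type skin, and medians were 0.416 and -0.261 in the authors' deposited table. Etv4 had an average of 255, a log2 fold change of 0.26, an interval between -0.07 and 0.59 and an authors' DESeq2 adjusted p = 0.500 in the authors' deposited table. Its mean z-scores were 0.596 in GNAQ R183Q skin and -0.596 in wild-type skin, with medians of 0.734 and -0.572 in the authors' deposited table. Etv1 stood at -0.12 with an interval between -0.39 and 0.15 in the authors' deposited table.

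Some RasGRP genes link diacylglycerol, the second messenger that Gq raises, to Ras and Rap. Rasgrp3, known from endothelium and B cells, averaged 948, with 1053 implied in GNAQ R183Q skin and 843 in wild-type skin in the authors' deposited table. The log2 fold change was 0.32, with an interval between -0.09 and 0.73 and an authors' DESeq2 adjusted p = 0.493 in the authors' deposited table, so no change was called. Mean z-scores of Rasgrp3 were 0.471 in GNAQ R183Q skin and -0.471 in wild-type skin, and medians were 0.283 and -0.569 in the authors' deposited table. Of 8 endothelial markers 0 passed the authors' DESeq2 threshold, also 0 at an unadjusted p of 0.05. Their implied levels summed to 8060 in GNAQ R183Q skin and 8042 in wild-type skin. Of these markers 5 were negative and 3 positive, at a median of -0.10, and their part in the value of Rasgrp3 was not tested. Rasgrp2, the exchange factor of platelets, and Rasgrp1, known from T lymphocytes and keratinocytes, stood at -0.10 and -0.12, with intervals from -0.42 to 0.23 and from -0.82 to 0.58, in the authors' deposited table. Of the 5 platelet markers 0 passed the authors' DESeq2 threshold, with 1 lower at an unadjusted p of 0.05 and 4 of 5 negative at a median of -0.45. Their implied levels summed to 384 in GNAQ R183Q skin and 569 in wild-type skin, and their part in the value of Rasgrp2 was not tested. Of the 5 T lymphocyte markers only Cd3g and Lck had a value.

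Ccnd1, Phlda1 and Ier3 are targets of ERK with other inputs as well. Ccnd1, the D-type cyclin that drives entry into the cell cycle, was the most abundant member, with an average of 5397 and with 5388 implied in GNAQ R183Q skin and 5406 in wild-type skin in the authors' deposited table. Its log2 fold change was -0.0049, with an interval between -0.26 and 0.25 and an authors' DESeq2 adjusted p = 0.994 in the authors' deposited table. Mean z-scores of Ccnd1 were 0.139 in GNAQ R183Q skin and -0.139 in wild-type skin, and medians were 0.347 and -0.435 in the authors' deposited table. Phlda1 averaged 397, at a log2 fold change of -0.22, an interval between -0.62 and 0.17 and an authors' DESeq2 adjusted p = 0.661 in the authors' deposited table. The mean z-scores were -0.376 in GNAQ R183Q skin and 0.376 in wild-type skin, and its medians were -0.784 and 0.684, in the authors' deposited table. Ier3, a small stress-induced protein, stood at -0.0058 with an interval between -0.63 and 0.62 in the authors' deposited table.

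**Figure D3:**
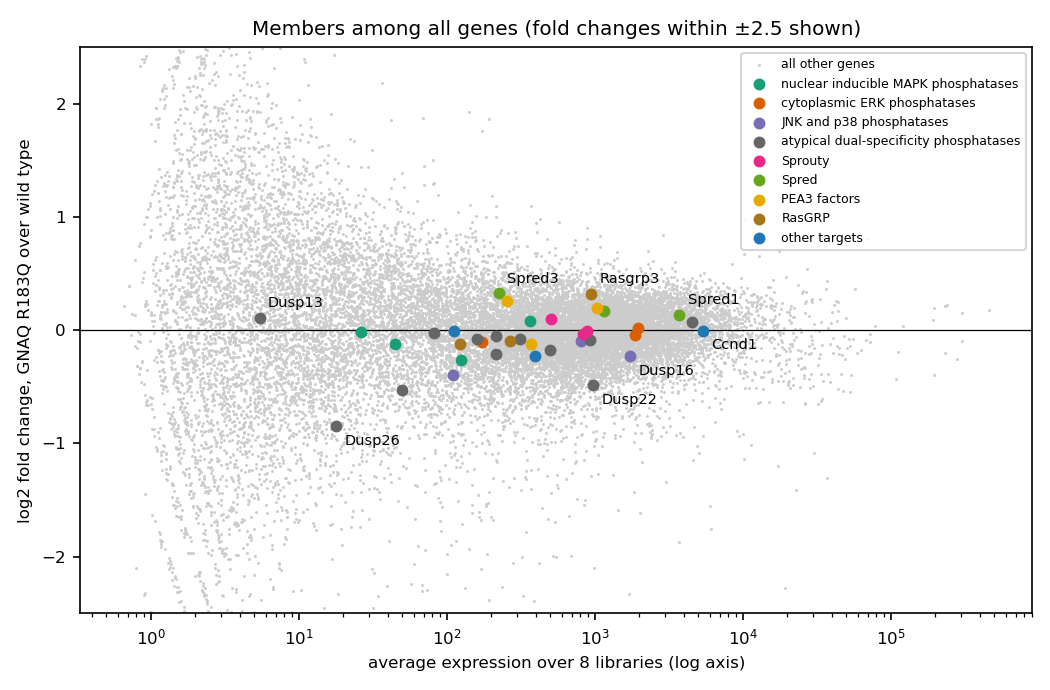
Log2 fold change (GNAQ R183Q over wild type) against average expression on a log axis, with the members coloured by family over all other genes in grey. Members of average expression above 100 stay between -0.49 for Dusp22 and 0.32 for Spred3.

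Levels of the members spanned a wide range. Average expression was divided by the length in kb of each gene's longest annotated transcript, which need not be the one expressed. By that measure Ccnd1 was highest, at 1443 per kb, followed by Dusp11 at 712 and Dusp6 at 700.5. Spred1 at 623, Dusp7 at 582 and Spry2 at 423 per kb came next. Dusp13 was lowest, at 3.13 per kb, and Dusp26 stood at 9.28 per kb. The members had a median transcript length of 2792 bases and a median GC content of 52.1%, against 2922 bases and 50.0% over all genes with a matched transcript.

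The rest of the pathway was described through lists of other genes, to be read beside all genes, of which 2.46% fell and 0.63% rose, with a median log2 fold change of 0.01. Of 36 measured genes of the Ras to ERK cascade 0 passed the authors' DESeq2 threshold, with 1 higher and 2 lower at an unadjusted p of 0.05, and a median of 0.01. The smallest p was that of Map2k2, one of the kinases that activate ERK, at -0.53 with an interval between -0.89 and -0.16 and an authors' DESeq2 adjusted p = 0.0987 in the authors' deposited table. Of 23 genes of the JNK and p38 cascades 2 fell and 0 rose, with 2 higher and 3 lower at an unadjusted p of 0.05, and a median of 0.08. Mapkapk3, a kinase activated by p38, fell, at -0.89 with an interval between -1.29 and -0.49 and an authors' DESeq2 adjusted p = 0.0012 in the authors' deposited table. Mapk13, the delta isoform of p38, fell at -0.66 with an interval between -1.07 and -0.25 and an authors' DESeq2 adjusted p = 0.0492 in the authors' deposited table, close to the threshold. After centring, Mapk13 kept a log2 fold change of -0.66 at an adjusted p of 0.0502. Net of length and GC it stood at -0.55 at an adjusted p of 0.141, so neither passed. The part of the suprabasal and periderm layers in the values of Mapkapk3 and Mapk13 was not tested.

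Of 20 other ERK-induced and feedback genes 1 rose and 0 fell, with 2 higher and 3 lower at an unadjusted p of 0.05, and a median of -0.17, or -0.06 net of length and GC. The gene that rose was Flrt3, a membrane protein that binds FGF receptors, at 0.44 with an interval between 0.19 and 0.69 and an authors' DESeq2 adjusted p = 0.0270 in the authors' deposited table, and net of length and GC it stood at 0.36 with an adjusted p of 0.0986, which did not pass. The 3 lower at the unadjusted p, none past the adjusted threshold, had these log2 values in the authors' deposited table: Fos stood at -0.64, Ier2 at -0.59 and Bysl at -0.47. Of 13 measured FGF ligands and receptors 0 passed the authors' DESeq2 threshold, also 0 at an unadjusted p of 0.05, with a median of 0.01, and the smallest p was that of Fgfr2, at 0.32 with an adjusted p = 0.426 in the authors' deposited table. Of 10 other Ras exchange factors 0 passed the authors' DESeq2 threshold, with 1 higher at an unadjusted p of 0.05, and a median of 0.08. It was Rasgrp4, the RasGRP gene of mast cells, at 0.53 with an interval between 0.12 and 0.95 and an authors' DESeq2 adjusted p = 0.176 in the authors' deposited table. Mast cell markers ran the other way, with 3 of 8 lower and implied levels that summed to 11472 in GNAQ R183Q skin and 17824 in wild-type skin, and their part in the value of Rasgrp4 was not tested.

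Of 15 measured relatives of the dual-specificity phosphatases 1 fell and 0 rose, with 2 higher and 2 lower at an unadjusted p of 0.05, and a median of -0.07. Ssh3, a slingshot phosphatase that acts on cofilin, fell, at -0.68 with an interval between -0.92 and -0.44. It had an authors' DESeq2 adjusted p = 5.42e-06 in the authors' deposited table. Mean z-scores of Ssh3 were -0.924 in GNAQ R183Q skin and 0.924 in wild-type skin. The part of the suprabasal and periderm layers in the value of Ssh3 was not tested. Of 12 genes of G1 cyclins and their partners 0 passed the authors' DESeq2 threshold, with 1 higher and 1 lower at an unadjusted p of 0.05 and a median of -0.05. The smallest p was that of E2f2, at -0.32 with an authors' DESeq2 adjusted p = 0.156 in the authors' deposited table.

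**Figure D4:**
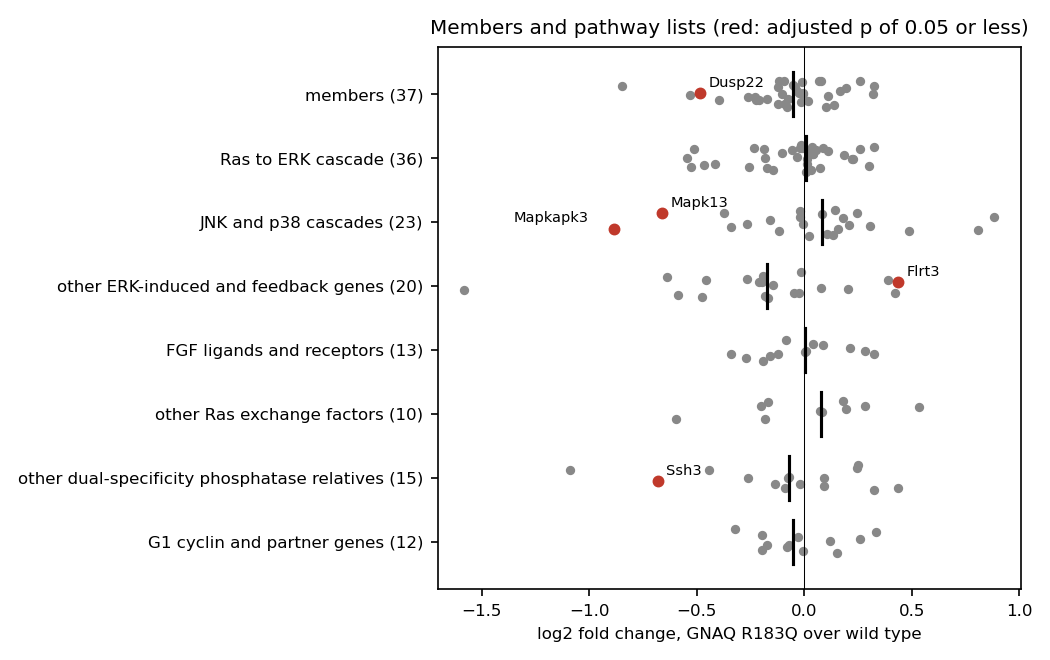
Log2 fold changes of GNAQ R183Q over wild type for the members and for 7 lists of other pathway genes, with the number measured in brackets, 1 point a gene and a bar at each median. Genes past an adjusted p of 0.05 are red: Dusp22 among the members, and Mapkapk3, Mapk13, Flrt3 and Ssh3 in the lists.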

How the data were processed

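RNA of embryonic back skin was sequenced by the submitters with stranded TruSeq libraries, 4 GNAQ R183Q and 4 wild type, independent samples per the design text. The submitters' processing notes name DESeq2 and mm39; aligner, counter, annotation, filter, design and DESeq2 version are not stated there. Per the file headers, the deposited average expression is a signal averaged over libraries, read here as normalized counts because it is never negative, not whole and sums to 2.68e+07, so that 1 CPM is 26.8 units. The authors deposited a log2 fold change, a p-value and an adjusted p-value for each gene, and Benjamini-Hochberg adjustment of those p-values returned the adjusted ones. The z-score columns are scores of log2 CPM that the authors averaged per genotype, per the file headers.

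Members and lists were chosen with earlier results of these data known. A gene was called at the authors' adjusted p of 0.05; counts of members are read beside the share of all genes called, with no test over members. An edgeR test planned for counts did not apply. Implied 95% intervals use as standard error the size of the log2 fold change over the normal quantile that belongs to p, and implied levels split the average by the fold change. Overlap of genotypes was bounded from mean and median z-scores of 4 and 4 libraries with a sample SD. Transcript length and GC content came from the longest transcript in GENCODE vM21, for 37 of 37 members and 87.5% of genes; their trend was fitted by splines (patsy 1.0.2) to 13786 genes. Other tools were Python 3.11.15 and scipy 1.17.1. Every member was named, with full values for those of unadjusted p up to 0.05 and, in each family, those of highest expression and of smallest p; from each list, called genes or that of smallest p. Calculations were tested on simulated data. Alternatives were a filter at 1 CPM, centring, a linear model rebuilt from the z-scores, subtraction of the trend with length and GC, and an adjusted p of 0.1.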

Additional observations from a re-analysis of the deposited data

How the results depend on the processing

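Of the 37 members, 0 rose under each of the 5 alternatives. The count of members that fell was 1 in 4 of them, Dusp22 in 3 and Dusp16 net of length and GC, and 0 in the linear model rebuilt from z-scores. That model called 0 of all 20152 genes, against 12.3% at an unadjusted p of 0.05, where 2 members passed, and in simulated data for this comparison over 20152 genes it recovered 9 of 100 genes shifted by 3 SD and 100 of 100 shifted by 12 SD, so its zeros say little. It also gave 0 for the JNK and p38 list, 0 for the other ERK-induced genes and 0 for the phosphatase relatives. The adjusted p of Dusp22 ran from 0.0364 with the 1 CPM filter to 0.242 in that model, and that of Dusp16 from 0.0218 net of length and GC to 0.174 in that model. Accounting for length and GC left 1 called gene in the JNK and p38 list, Mapkapk3, while Mapk13 was no longer called at -0.55. It left 0 among the other ERK-induced genes, where Flrt3 was no longer called at 0.36. Centring also left only Mapkapk3 in the JNK and p38 list, with Mapk13 no longer called at -0.66. At an adjusted p of 0.1 the Ras to ERK cascade had 1 called gene, Map2k2, the other ERK-induced genes had 2, Flrt3 higher and Ier2 lower at -0.59, and the JNK and p38 list had 3, with Mapk8 higher at 0.31. The median over members was -0.06 with the 1 CPM filter, -0.05 after centring and 0.06 without the length and GC trend. No paired analysis was possible because the values used here are means over libraries, and for the same reason no replicate could be left out. Genes of low expression, such as Dusp13, have wide intervals.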

Other observations

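Tested genes next to Dusp22 on the chromosome, in the order of RefSeq genes of GRCm38.p6, did not pass. In the authors' deposited table Agtr1a had a log2 fold change of -0.36 at a DESeq2 adjusted p of 0.504. Uqcrfs1 had -0.28 at 0.483 and Exoc2 had -0.06 at 0.852. Irf4, with an average expression of only 32.1, had 0.37 at 0.760. The 4 tested neighbours of Dusp16 all had negative log2 fold changes in the authors' deposited table, and none passed the authors' DESeq2 threshold. Borcs5 stood at -0.49 and Mansc1 at -0.40, while Gm36328 at -1.73 and 1700055D16Rik at -1.05 had average expressions of only 3.80 and 6.76 in the authors' deposited table.

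Hras, a Ras gene outside the members, was chosen after its values were seen, because it and Map2k2 had the lowest fold changes of the Ras to ERK list. It stood at a log2 fold change of -0.55, with an implied interval between -0.98 and -0.11 and an authors' DESeq2 adjusted p = 0.193 in the authors' deposited table, which was 0.393 net of length and GC. Il17rd, a feedback inhibitor of FGF signalling also singled out afterwards, stood at 0.42 with an interval between -0.02 and 0.86 and an authors' DESeq2 adjusted p = 0.374 in the authors' deposited table.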
